A study of Mus musculus with 12 samples.

Results

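The nuclear genes of the mitochondrial respiratory chain were described in a cell line from mouse liver, BNL CL.2, cultured with or without an iron salt and with or without macrophages. The genes were chosen by symbol: those that start with Nduf, Uqcr, Cox4 to Cox8 or Atp5, together with Sdha to Sdhd and Cyc1, each with a probe set that names 1 gene. This gave 91 of the 18194 genes compared. They comprised 34 genes for complex I, 8 for complex I assembly factors (the Ndufaf genes), 4 for complex II, 9 for complex III, 19 for complex IV and 17 for the ATP synthase. Ndufa4 and Ndufa4l2 were counted with complex IV, where the Ndufa4 protein sits, and Cox7a2l, which helps complexes III and IV to associate, was counted there by its name.

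Expression was measured on 12 Affymetrix mouse arrays after 24 h of culture, with 3 arrays in each of 4 groups. The controls (alone) were measured beneath an insert filled with more cells of their own line. The arrays of FAC came from such cultures given ferric ammonium citrate, which supplies iron, at 100 micromolar. For RAW, the macrophage line RAW 264.7, also from mouse, replaced the liver cells of the insert, and RAW_FAC combined those macrophages with the iron salt. The 4 groups shared the same cell line, a medium of DMEM with serum, and the insert. The labels do not say whether replicates were separate cultures; a p-value here therefore measures only how these samples spread, which may be technical.

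The respiratory chain passes electrons from NADH through complex I, and from succinate through complex II, to ubiquinone, then through complex III and cytochrome c to complex IV, which reduces oxygen. Complexes I, III and IV pump protons across the inner mitochondrial membrane, and the ATP synthase uses the return of those protons to make ATP. Iron is a cofactor of the chain itself: complexes I, II and III hold iron-sulfur clusters, complexes II, III and IV hold heme, and cells make both cofactors in part in the mitochondrion. Most subunits are encoded in the nucleus, and nuclear respiratory factor 1 (NRF1), ETS-family factors such as GABP, and YY1 are known regulators of many of these genes.

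Promoter sequences of the members are shown because the genes were chosen as a group with shared regulators, and a motif in common is a property that the choice by symbol did not use. RefSeq windows of build GRCm38.p6, from 250 bases before to 50 bases after an annotated start site, were found for 74 of the 91 members. Each window was searched on both strands for the NRF1 motif (GCGCA, then any 1 base, then GCGC) and the ETS motif CCGGAAG. The YY1 motif AAGATGGCG and the TATA box TATAAA were searched in the same way. A gene was counted for each motif that any of its windows held, whether or not matches overlapped. A gene with more start sites thus had more chances of a match. The capitals mark the NRF1 motif in the 6 stretches below, chosen from 5 of the 6 classes among matches that end before the start site, each read 5′ to 3′ on the strand of its gene.
Ndufs5, chr4:123718250-123718309, minus strand: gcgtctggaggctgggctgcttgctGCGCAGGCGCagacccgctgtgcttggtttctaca
Ndufaf4, chr4:24897945-24898004, plus strand: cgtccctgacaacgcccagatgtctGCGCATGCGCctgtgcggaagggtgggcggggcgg
Sdha, chr13:74350261-74350320, minus strand: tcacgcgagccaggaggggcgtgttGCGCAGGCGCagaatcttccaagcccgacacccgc
Sdhd, chr9:50603894-50603953, minus strand: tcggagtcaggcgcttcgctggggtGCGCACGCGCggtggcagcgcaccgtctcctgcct
Cox6a1, chr5:115349041-115349100, minus strand: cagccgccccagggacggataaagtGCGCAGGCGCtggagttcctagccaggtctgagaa
Atp5h, chr11:115420026-115420085, minus strand: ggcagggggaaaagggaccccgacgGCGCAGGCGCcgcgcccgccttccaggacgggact

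The NRF1 motif was found in 17 of the 74 members with a window (23.0%). Of the 27025 genes with a window 5.19% held it, and of the 14369 tested genes with a window 8.63%. The ETS motif was found in 19 members (25.7%, against 9.93% and 15%) and the YY1 motif in 7 (9.46%, against 1.64% and 2.54%). The TATA box was found in 8 (10.8%, against 15.7% and 11.5%). By class, 6 of 15 ATP synthase genes with a window held the NRF1 motif. The counts were 5 of 31 for complex I, 2 of 7 for the assembly factors and 2 of 3 for complex II. They were 1 of 5 for complex III and 1 of 13 for complex IV. These are matches of letters, not measured binding, and no test was made on them.

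The iron labels were checked with Tfrc, the transferrin receptor, whose mRNA is known to be lower in iron-loaded cells. Its array values lay between 13.07 and 13.4 in the 6 arrays without the salt and between 11.46 and 12.35 in the 6 with it, with no overlap. Of 13 macrophage markers, 10 had a mean below the median of all genes, and the mean level of the list ran from 5.81 to 5.85 in alone, 5.80 to 5.87 in FAC, 5.83 to 5.91 in RAW and 5.86 to 5.91 in RAW_FAC. Ptprc, Itgam and Tyrobp, which define blood cells or macrophages, had the lowest means, 3.50, 3.69 and 4.49, while Laptm5, Cd53 and Cd14 lay above that median, at 6.91, 7.53 and 12.04. Of 7 hepatocyte markers 4 lay below that median, Alb among them at 5.20, and Afp, Hnf4a and Apob lay above it, at 9.04, 10.45 and 11.82. Krt8 and Krt18, keratins of simple epithelia, had means of 14.28 and 14.07. Of the other epithelial markers, Krt19 and Cdh1 lay at 13.32 and 12.72, and Epcam lay below that median at 6.74. Of 6 mesenchymal markers 5 lay below it, while Vim lay at 14.14. The 3′ minus 5′ difference of the Gapdh probe sets lay between -0.053 and 0.11 on the 12 arrays, a measure of RNA quality. It followed the replicate number in each group. It was lowest in replicate 2, from -0.053 to -0.029, and highest in replicate 3, from 0.056 to 0.11. The same difference for Actb lay between 0.32 and 0.42.

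The members gave strong and steady array signals. The median of their means over 12 arrays was 12.29 on the log2 scale, against 6.82 for all genes tested, and 55 of 91 (60.4%) had a mean above 12, against 4.86% of all genes. Array values of different probe sets are not amounts of RNA that can be set against each other, so levels of single genes are compared here only between arrays. The median SD over the 12 arrays was 0.056 for the members and 0.11 for all genes. At a mean above 12 it was 0.047 for the 55 members and 0.064 for the 884 genes in that range. The 8 members below the median of all genes were Ndufb4 of complex I and 7 genes of complex IV: Cox7b2, Cox6b2, Cox7a1, Cox8b, Cox4i2, Ndufa4l2 and Cox6a2. The last 7 are known as isoforms of particular tissues or conditions, such as muscle, testis, lung or low oxygen.

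No member passed an adjusted p of 0.05 (limma, Benjamini-Hochberg over 18194 genes) in any of 8 comparisons: the 5 between 2 groups, the interaction, and the average effects of the iron salt and of the macrophages. The same comparisons called few genes of any kind. The share of all genes called was 0% in each comparison of 2 groups and in the interaction, 0.0055% for the average effect of iron (Tfrc) and 0.011% for that of macrophages. With the replicate number as a block, which pairs the arrays, limma again called 0 members. Of all genes it called 0.033% for FAC against alone, 0.0769% for RAW_FAC against RAW, 0.203% for RAW_FAC against alone, 0.791% for iron on average and 0.055% for macrophages on average, and 0% in the others. At an unadjusted p under 0.05, limma without the block found 1 member in RAW against alone (3.81% of all genes) and 1 for iron on average (6.51%). It found 0 in FAC against alone (3.03% of all genes), RAW_FAC against RAW (5.71%), RAW_FAC against FAC (3.15%), RAW_FAC against alone (4.88%), the interaction (2.97%) and macrophages on average (3.94%). With the block it found 0 members in FAC against alone (6.57% of all genes), RAW_FAC against FAC (5.61%) and the interaction (4.34%), 2 in RAW against alone (6.13%), RAW_FAC against alone (10.1%) and macrophages on average (7%), and 3 in RAW_FAC against RAW (11.2%) and for iron on average (12.3%). Under no difference 4.55 of 91 would be expected in each, if the test were calibrated for these genes. Limma draws the spread of each gene towards that of all genes. Without the block the median residual SD was 0.0574 for the members and 0.109 for all genes. Counts below 4.55 are therefore not read as a result.

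Most confidence intervals were narrow. In FAC against alone the 95% confidence interval of all 91 members lay within 0.5 on the log2 scale, a 1.41-fold difference either way, and the same held for RAW_FAC against FAC and for both average effects. It held for 89 members in RAW against alone, 90 in RAW_FAC against RAW, 90 in RAW_FAC against alone and 88 in the interaction. The exceptions were Cox6a2, Cox7a1 and Ndufb4, 3 of the 8 members with low signal. Narrow intervals were not particular to the members. Of all genes, 96.4% lay within the bound in FAC against alone, 97% in RAW against alone and 84.6% in the interaction. Of the genes with a mean above 12, 97.4%, 98.8% and 96.8% did. The median half-width of the interval was 0.14 for a comparison of 2 groups and 0.098 for an average effect.

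**Figure D1:**
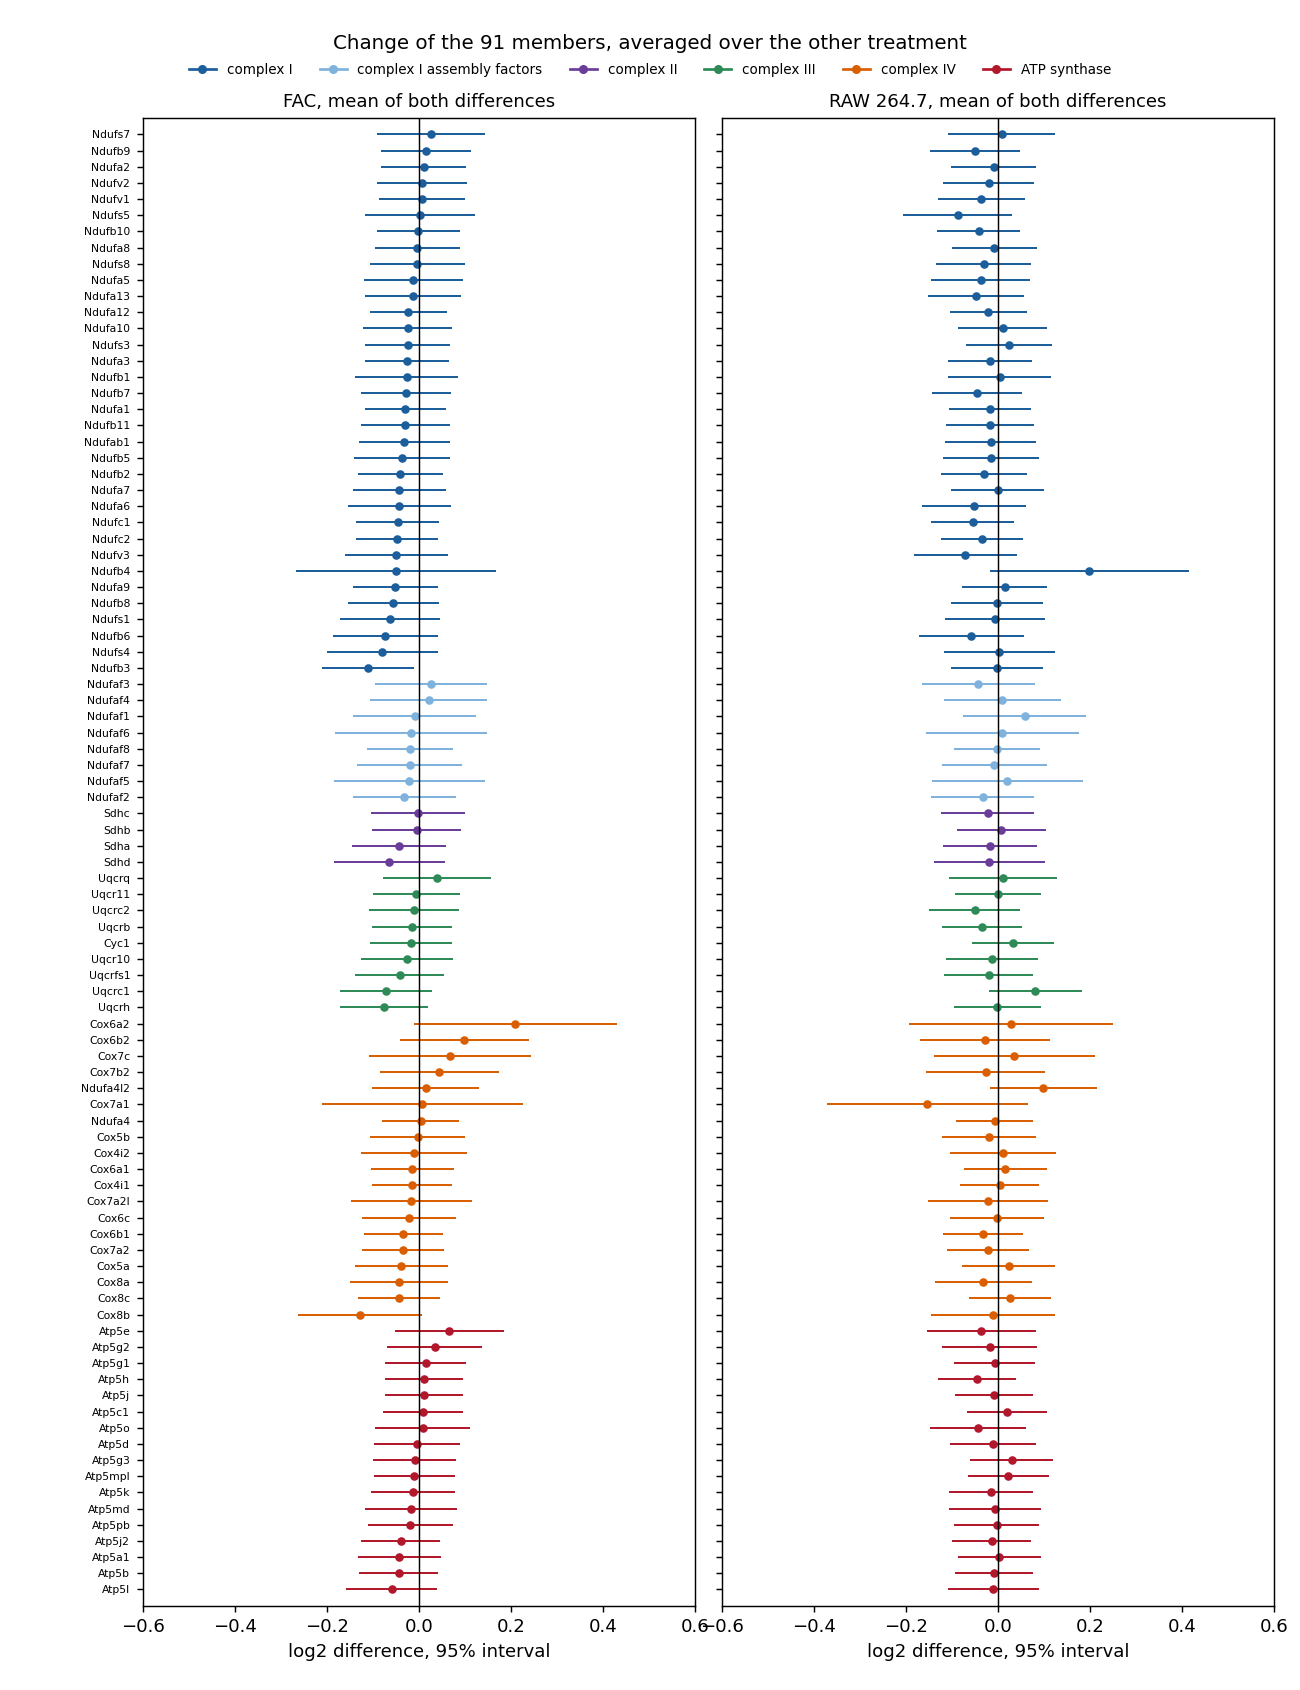
Average effect of the iron salt (left) and of the macrophages (right) on each of the 91 members, as the log2 difference between group means (point) with its 95% confidence interval from limma (line), by complex. For iron the interval of Ndufb3 excludes 0 and for macrophages that of no member does; the widest belong to Ndufb4, Cox6a2 and Cox7a1.

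Within those limits the direction of the members was uneven with iron. In FAC against alone, 70 of 91 members had a lower mean with the salt, while 52.2% of all genes did and 58.8% of the 884 genes with a mean above 12. The median member difference was -0.031, against -0.0043 for all genes, and in the same-number pairs it was -0.060, -0.016 and -0.010. Without FAC replicate 1 the median was -0.019 and 58 of 91 members were below 0. The difference was below 0 in each of 3 same-number pairs for 33 members (36.3%), against 14.8% of all genes, and above 0 in each for 2, against 13.4%. Among the genes with a mean above 12 the shares were 21% and 12.6%. For 8 members (Atp5l, Cox4i1, Cox6b1, Cox7a2, Cyc1, Ndufc2, Ndufs3 and Uqcrc1) the 3 FAC arrays lay below the 3 alone arrays without overlap, and for 0 above, against 3.82% and 3.74% of all genes. In bulk samples such as these, fewer cells of a type and less RNA per cell cannot be told apart.

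The iron comparison was also made with macrophages in the insert. In RAW_FAC against RAW, 54 of 91 members were below 0, against 50% of all genes, and the median was -0.014. This median rested on the array RAW replicate 2, the array with the highest median member level: without it the median was 0.017 and 34 members were below 0. Without RAW replicate 1 or 3 the median was -0.023 or -0.026, and without RAW_FAC replicate 3 it was -0.0037. The count here and that of FAC against alone were 63 and 67 after centring of the arrays, and 59 and 63 after quantile normalization. The same-number medians were 0.023, -0.045 and -0.0086. In 3 of 3 pairs 21 members (23.1%) were below 0 and 7 above, against 15.3% and 15.1% of all genes. Among the genes with a mean above 12 the shares were 17.6% and 17.5%. For 6 members the RAW_FAC arrays lay below the RAW arrays without overlap and for 2 above, against 5.27% and 4.48% of all genes.

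**Figure D2:**
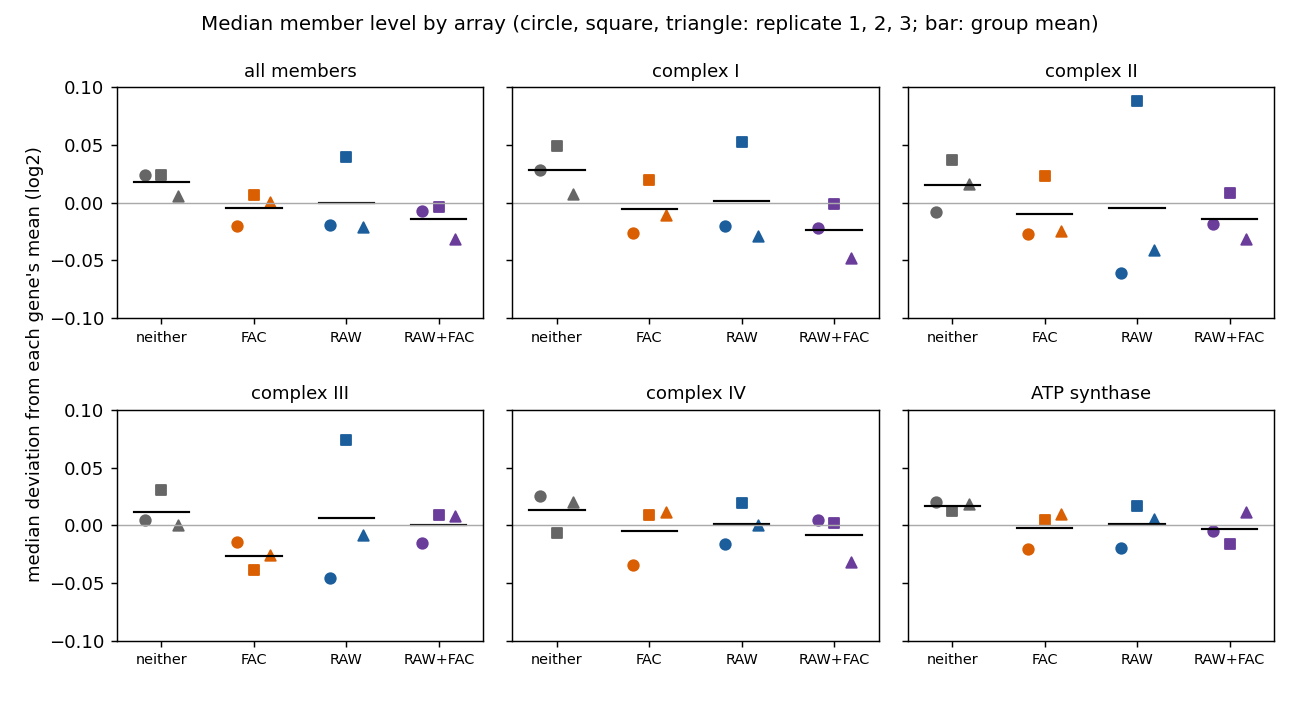
Median deviation of the members from their own means over 12 arrays (log2), for all members and for 5 complexes, in each array, with the group mean as a bar and the group alone shown as neither. Replicate 2 (squares) lies above replicates 1 and 3 within each group for complex I and complex II, and the alone arrays of complex I sit between 0.0077 and 0.049.

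Complex I, the NADH dehydrogenase, is the largest of the complexes. In FAC against alone 32 of its 34 members were below 0, with a median of -0.038 and same-number medians of -0.069, -0.030 and -0.011; Ndufa2 at 0.0065 and Ndufb9 at 0.024 were the others. The count was 31 after each array was centred on its median, 30 after quantile normalization, and between 24 and 32 when any single array was left out, the lowest without FAC replicate 1. In RAW_FAC against RAW 23 of 34 were below 0, and 12 without RAW replicate 2. Averaged over both conditions of the insert, 68 of 91 members were below 0 with iron, against 51.1% of all genes, and 28 of 34 in complex I, with a complex I median of -0.028. Without RAW replicate 2 these were 55 of 91 and 23 of 34, with a complex I median of -0.015. In the same average, 4 of 4 members of complex II and 8 of 9 of complex III were below 0. Complex I counts were also high in the macrophage comparisons. They were 30 of 34 in RAW against alone (median -0.029) and 26 of 34 in RAW_FAC against FAC (median -0.013). The first fell to 21 without RAW replicate 3, and the second to 17 without FAC replicate 2 or RAW_FAC replicate 3. RAW against alone and FAC against alone share the alone arrays. Whether these counts differ from those of other complexes was not tested.

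Ndufb3, an accessory subunit in the membrane arm of complex I, had the largest average iron difference of its class. Its array values were 11.84, 11.69 and 11.74 in alone and 11.62, 11.62 and 11.72 in FAC, with 11.83, 11.74 and 11.72 in RAW and 11.67, 11.65 and 11.62 in RAW_FAC. The FAC arrays overlapped the alone arrays, while the RAW_FAC arrays lay below every RAW array. The average iron difference was -0.11 (SE 0.045, 95% interval -0.21 to -0.013), or 1.08-fold lower, below 0 in 3 of 3 pairs, with a limma adjusted p of 0.721 without the block and 0.286 with it. Ndufs4, an accessory subunit near the NADH-oxidising module that is mutated in a form of Leigh syndrome, had 10.95, 11.02 and 10.85 in alone, 10.78, 10.90 and 10.79 in FAC, 10.87, 11.06 and 10.80 in RAW and 10.85, 10.92 and 10.82 in RAW_FAC. All groups overlapped, and its average iron difference was -0.080 (SE 0.055, limma adjusted p = 0.845). Another of its probe sets gave 0.086 for the same difference, and the remaining ones gave -0.14 and -0.053.

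Of 7 subunits that carry iron-sulfur clusters (Ndufs1, Ndufs7, Ndufs8, Ndufv1, Ndufv2, Sdhb and Uqcrfs1), 6 were below 0 in FAC against alone, with a median of -0.020, and 4 were below 0 for the average iron effect, with a median of -0.0031. Ndufs1, the large subunit of the peripheral arm with several clusters, had 11.49, 11.48 and 11.45 in alone and 11.32, 11.47 and 11.38 in FAC. Its average iron difference was -0.063 (SE 0.049, limma adjusted p = 0.871). Ndufv1, which binds NADH and FMN, and Ndufv2, its partner, had average iron differences of 0.0071 (SE 0.043) and 0.0072 (SE 0.044), and Ndufs8 had -0.0031 (SE 0.047). Ndufs7, which holds the last cluster before ubiquinone, had 12.24, 12.33 and 12.32 in alone, 12.26, 12.19 and 12.28 in FAC, 12.10, 12.32 and 12.26 in RAW and 12.28, 12.27 and 12.44 in RAW_FAC, so that neither iron comparison separated its groups.

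**Figure D3:**
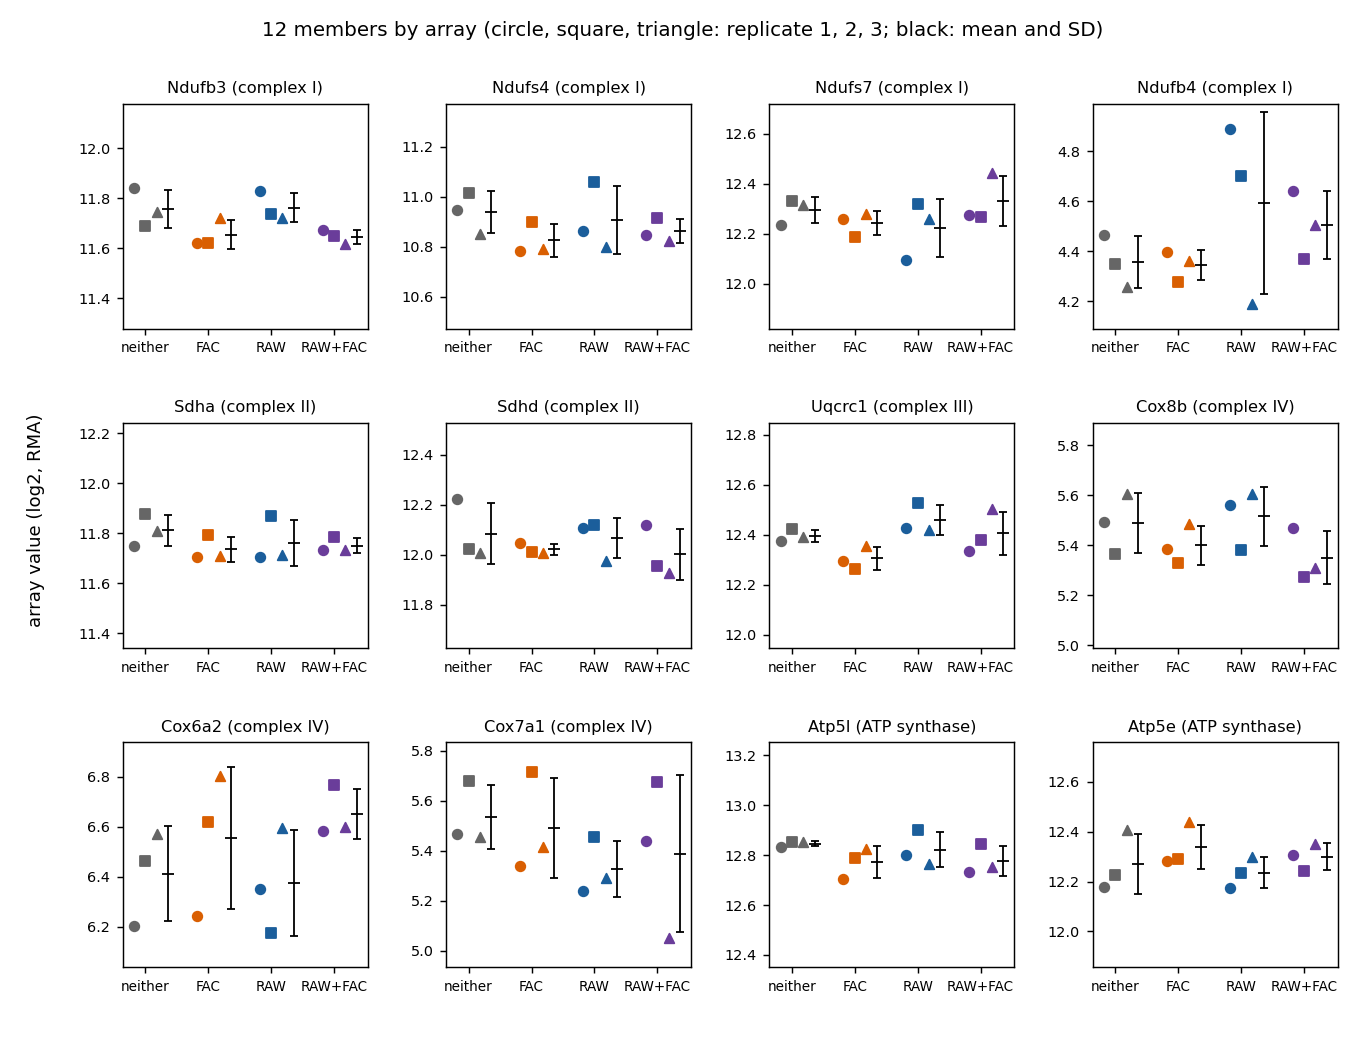
Array values (log2, RMA) of 12 members in the 4 groups (alone is shown as neither), with each replicate as a point and the group mean and SD in black; every panel spans 0.9 log2 units. Groups overlap in most panels, and the FAC arrays of Uqcrc1 and Atp5l lie below their alone arrays.

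Complex II, succinate dehydrogenase, has a flavoprotein (Sdha), an iron-sulfur protein (Sdhb) and a pair of membrane anchors that hold a heme (Sdhc and Sdhd). Sdhd had 12.22, 12.02 and 12.01 in alone, 12.05, 12.01 and 12.01 in FAC, 12.11, 12.12 and 11.97 in RAW and 12.12, 11.96 and 11.93 in RAW_FAC. The high value of alone replicate 1 was not shared by the other alone arrays, and the average iron difference was -0.065 (SE 0.055, limma adjusted p = 0.883). Sdha had 11.75, 11.88 and 11.81 in alone and 11.71, 11.79 and 11.71 in FAC, a difference of -0.076 (SE 0.066) that was below 0 in 3 of 3 pairs with overlapping groups. The 4 probe sets of Sdha did not give the same direction: the average iron difference was -0.044 for the one used, 0.018 for the other with a high signal, and -0.12 and 0.31 for the remaining ones, whose means were 3.95 and 5.07. Sdhb and Sdhc had average iron differences of -0.0042 (SE 0.044) and -0.0016 (SE 0.046).

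Complex III, the cytochrome bc1 complex, had 8 of 9 members below 0 in FAC against alone, with a median of -0.040. Uqcrc1, a core subunit, had 12.37, 12.42 and 12.39 in alone and 12.29, 12.26 and 12.36 in FAC, so that the FAC arrays lay below the alone arrays. It had 12.43, 12.53 and 12.42 in RAW and 12.34, 12.38 and 12.50 in RAW_FAC, where the groups overlapped. The difference was -0.090 (SE 0.064, limma adjusted p = 1.00, 0.871 with the block) without macrophages and -0.053 (SE 0.064) with them. Cyc1, the cytochrome c1 heme protein, had 12.51, 12.52 and 12.52 in alone and 12.50, 12.47 and 12.49 in FAC, which did not overlap but differed by -0.028 (SE 0.057). Uqcrfs1, the Rieske iron-sulfur protein, differed by -0.047 (SE 0.062) and Uqcrh, the hinge protein, by -0.056 (SE 0.061), while Uqcrq was the member above 0, at 0.052 (SE 0.075).

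Complex IV, cytochrome c oxidase, was split in its counts, with 11 of 19 members below 0 in FAC against alone and a median of -0.019. Cox4i1, the common isoform of the subunit 4 gene, had 13.66, 13.65 and 13.64 in alone and 13.59, 13.63 and 13.64 in FAC, a difference of -0.028 (SE 0.055). Cox5a, Cox6a1 and Ndufa4 had average iron differences of -0.039 (SE 0.046), -0.014 (SE 0.041) and 0.0040 (SE 0.038). The largest differences of the complex belonged to genes with low signal. Cox6a2, the muscle isoform of subunit 6A, had 6.20, 6.46 and 6.57 in alone, 6.24, 6.62 and 6.80 in FAC, 6.35, 6.17 and 6.60 in RAW and 6.58, 6.77 and 6.60 in RAW_FAC. Its average iron difference was 0.21 (SE 0.10, above 0 in 3 of 3 pairs, limma adjusted p = 0.776, 0.315 with the block), and its other probe set gave -0.058. Cox8b, the muscle isoform of subunit 8, had 5.49, 5.36 and 5.61 in alone, 5.38, 5.33 and 5.49 in FAC, 5.56, 5.38 and 5.61 in RAW and 5.47, 5.27 and 5.31 in RAW_FAC. Its average iron difference was -0.13 (SE 0.061, below 0 in 3 of 3 pairs), and its adjusted p with the block, 0.264, was the lowest of any member in any comparison.

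The ATP synthase had 12 of 17 members below 0 in FAC against alone and 7 of 17 in RAW_FAC against RAW, with medians of -0.014 and 0.014. Atp5b, the catalytic beta subunit, had 13.57, 13.60 and 13.55 in alone, 13.53, 13.55 and 13.51 in FAC, 13.55, 13.59 and 13.55 in RAW and 13.51, 13.53 and 13.53 in RAW_FAC. The 2 iron differences were -0.044 (SE 0.054) and -0.045 (SE 0.054), and only the second had groups without overlap. Atp5a1, the alpha subunit, had an average iron difference of -0.042 (SE 0.041), and Atp5g1, a gene for the membrane ring, had 0.015 (SE 0.040). The largest average differences were those of Atp5e, the epsilon subunit of the central stalk, at 0.066 (SE 0.054), and of Atp5l, a membrane subunit, at -0.059 (SE 0.045). The 3 FAC arrays of Atp5l, at 12.70, 12.79 and 12.82, lay below the alone arrays at 12.83, 12.85 and 12.85.

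The macrophage comparison without iron asked whether the respiratory chain genes of the liver cells differed when RAW 264.7 cells shared the medium. In RAW against alone 64 of 91 members were below 0, against 50.2% of all genes and 61.3% of the genes with a mean above 12, and the median was -0.024. The same-number medians had both signs, at -0.044, 0.018 and -0.026. Each RAW array moved the median: it was -0.013 without RAW replicate 1, -0.043 without replicate 2 and -0.011 without replicate 3, with 61, 70 and 49 of 91 members below 0. In 3 of 3 pairs 22 members (24.2%) were below 0 and 7 (7.69%) above, against 16.3% and 14.9% of all genes. The shares were 24.4% and 11% of the genes with a mean above 12, so the share below 0 was like that of genes with high signal. For 5 members the RAW arrays lay below the alone arrays and for 1 above, against 3.61% and 5.16% of all genes. This comparison shares the alone arrays with that of FAC against alone, so both move with any level peculiar to those 3 arrays. With iron in both groups (RAW_FAC against FAC), 59 of 91 were below 0, against 46.1% of all genes, with a median of -0.0075. That direction rested on single arrays: the median was 0.0040 with 41 below 0 without FAC replicate 2, and 0.0027 with 44 below 0 without RAW_FAC replicate 3. It was -0.021 without FAC replicate 1, -0.0032 without FAC replicate 3 (0.00699 with the block) and -0.013 without RAW_FAC replicate 2. In 3 of 3 pairs 5 members were below 0 and 11 above, against 11.4% and 16.2% of all genes and 11% and 13% of the genes with a mean above 12. There 2 members were lower and 1 higher without overlap, against 3.02% and 3.63% of all genes.

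Among single members, Ndufa4l2, known for its induction in low oxygen, was the one with an unadjusted limma p under 0.05 in RAW against alone, without the block. It had 5.72, 5.75 and 5.98 in alone, 6.0, 5.96 and 5.99 in RAW, 5.92, 5.89 and 5.88 in FAC and 5.95, 5.84 and 6.0 in RAW_FAC. The lower alone values came from replicates 1 and 2, and the third overlapped RAW. The difference was 0.16 (SE 0.074, limma adjusted p = 1.00, 0.739 with the block). Cox7a1, the heart and muscle isoform of subunit 7A, had 5.47, 5.68 and 5.46 in alone, 5.24, 5.46 and 5.29 in RAW, 5.34, 5.72 and 5.42 in FAC and 5.44, 5.67 and 5.05 in RAW_FAC. Its average macrophage difference was -0.15 (SE 0.10, limma adjusted p = 1.00, 0.668 with the block), and it was below 0 in 3 of 3 pairs.

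Ndufb4, a complex I subunit with low signal here, had 4.46, 4.35 and 4.26 in alone, 4.40, 4.28 and 4.36 in FAC, 4.89, 4.70 and 4.19 in RAW and 4.64, 4.37 and 4.51 in RAW_FAC. The RAW arrays held both its highest and its lowest value, and the average macrophage difference was 0.20 (SE 0.099). Among members with high signal, Uqcrc1 had the average macrophage difference of largest size in complex III, 0.081 (SE 0.045), above 0 in 3 of 3 pairs. Ndufs5 had -0.088 (SE 0.054), below 0 in 2 of 3 pairs. Uqcrc2 had -0.051 (SE 0.045), while its other probe set, with a mean of 12.15, gave 0.00034. Atp5h and Atp5o, of the ATP synthase stalk, had -0.046 (SE 0.038) and -0.043 (SE 0.047). Their other probe sets gave -0.0203 and -0.135. Each of these members had a limma adjusted p of 1.00.

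The arrays with both treatments were also set against those with neither. In RAW_FAC against alone 68 of 91 members were below 0, against 48.1% of all genes and 55.9% of the genes with a mean above 12. The median was -0.029, with same-number medians of -0.023, -0.029 and -0.039. For 40 members (44.0%) the difference was below 0 in 3 of 3 pairs, against 14.6% of all genes, and for 5 it was above 0, against 15.4%. Among the 884 genes with a mean above 12 the shares were 24.9% and 16%. The groups did not overlap for 14 members lower and 1 higher, against 4.36% and 4.67% of all genes. Among those 884 genes the counts were 62 lower and 29 higher. Complex I supplied 9 of the 14 and had 31 of its 34 members below 0, with a median of -0.047. After each array was centred on its median, 80 of 91 members were below 0 and the median was -0.055, while the median of all genes moved from 0.0042 to -0.021.

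Ndufb6, a membrane-arm subunit of complex I and named here after its values were seen, had 11.82, 11.88 and 11.70 in alone and 11.65, 11.72 and 11.63 in RAW_FAC, with overlap. Its difference of -0.13 (SE 0.073) was below 0 in 3 of 3 pairs, with a limma adjusted p of 0.956, and 0.477 with the block. Ndufc2 and Cox6b1, also named after their values were seen, had the 3 alone arrays above those of FAC and of RAW_FAC; in each gene the highest RAW array all but equalled the lowest alone array. Ndufc2, a membrane-arm subunit, lay between 12.22 and 12.28 in alone and between 12.11 and 12.22 in the 6 arrays of FAC and RAW_FAC, and Cox6b1, a subunit on the outer face of complex IV, lay between 13.65 and 13.66 in alone and between 13.53 and 13.63 in those 6. The differences of Ndufc2 and Cox6b1 were under 0.1 in size. In FAC against alone the Ndufc2 probe set used gave -0.0554. Its others gave 0.0555, -0.0178 and -0.0581, with means of 10.76, 11.14 and 4.901. For Cox6b1 the probe set used gave -0.0362 and the other -0.0345.

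**Figure D4:**
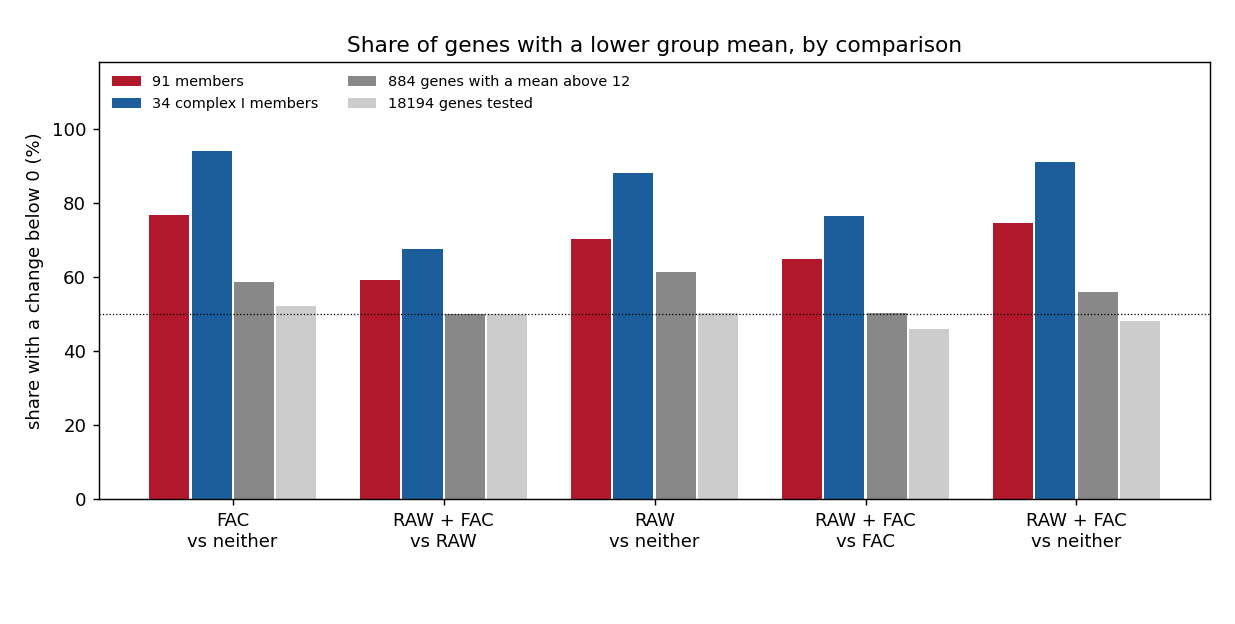
Share of genes with a lower mean in the first-named group (%), for the 91 members, the 34 complex I members, the 884 genes with a mean above 12 and all 18194 genes tested, in 5 comparisons. The members lie above both backgrounds in each, from 59.3% to 76.9%, and comparisons that share a group are not independent.

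Whether iron acted differently with macrophages present was tested as the interaction, the iron difference with macrophages minus that without. No member passed (limma adjusted p of at least 0.999 for each, without and with the block), and 0% of all genes were called. Below 0 were 32 of 91 members (35.2%), against 45.7% of all genes and 38.8% of the genes with a mean above 12. The median over the members was 0.017. That median turned to -0.0019 when the arrays were centred and to -0.0010 after quantile normalization, so its sign was not stable, and it lay between 0.0065 and 0.034 when any single array was left out.

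Other genes of the pathway, from lists set beside the members, showed no calls either: limma called 0 genes of the lists below in each comparison, without or with the block. Of 37 assembly factors other than the Ndufaf genes, 23 were below 0 in FAC against alone (median -0.040). The same held for 10 of 12 electron carriers and coenzyme Q enzymes (-0.038), 11 of 13 citrate cycle enzymes (-0.026) and 54 of 76 mitochondrial ribosomal proteins (-0.024). Outside the mitochondrion, 23 of 42 cytosolic ribosomal proteins were below 0 (-0.0034) and 8 of 40 proteasome subunits (0.038). Among 13 regulators 6 were below 0 (0.0085), and for the average iron effect 4 were below 0 and 9 above, with a median of 0.031. Of these, Nrf1 and Ppargc1a were named after their values were seen. Nrf1, which encodes the factor whose motif is shown above, had an average iron difference of -0.16 (SE 0.071, limma adjusted p = 0.744), and Ppargc1a, the coactivator PGC-1alpha, had -0.21 (SE 0.090, adjusted p = 0.744), both below 0 in 3 of 3 pairs. The members with an NRF1 motif had a median FAC against alone difference of -0.013, with 13 of 17 below 0, and those without had -0.036, with 47 of 57. The mitochondrial gene ND5, the measured member of the complexes that is not encoded in the nucleus, had a mean of 11.04 and an average iron difference of 0.093 (SE 0.072).

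The replicate number went with differences as wide as those between groups in many members. The range of the 3 replicate-number means exceeded that of the 4 group means in 58 of 91 members (63.7%), against 48.9% of all genes and 63.5% of the genes with a mean above 12. Replicate 2, which had the lowest Gapdh 3′ minus 5′ difference in each group, had the highest mean in 48 of 91 members. It had the highest mean in 5497 of the 18194 genes tested and in 264 of the 884 with a mean above 12. A link between that RNA quality measure and the member levels was not tested. In an F test of the replicate number (limma, added after the data were seen), 4 of 91 members passed an adjusted p of 0.05 (4.4%), against 10.6% of all genes. They were, named after their values were seen, the complex I assembly factors Ndufaf1, Ndufaf5 and Ndufaf6 and the low-signal Cox7a1. Ndufaf6 had 8.67, 8.89 and 8.64 in alone, 8.76, 8.81 and 8.66 in FAC, 8.69, 8.95 and 8.67 in RAW and 8.73, 8.92 and 8.53 in RAW_FAC, so replicate 2 was the highest in each group and replicate 3 the lowest. Ndufaf1 ran the other way, with replicate 2 the lowest in each group, and its values lay between 10.63 and 10.91. The count was 10 when genes with low means were left out and 7 when all probe sets of a gene were averaged.

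**Figure D5:**
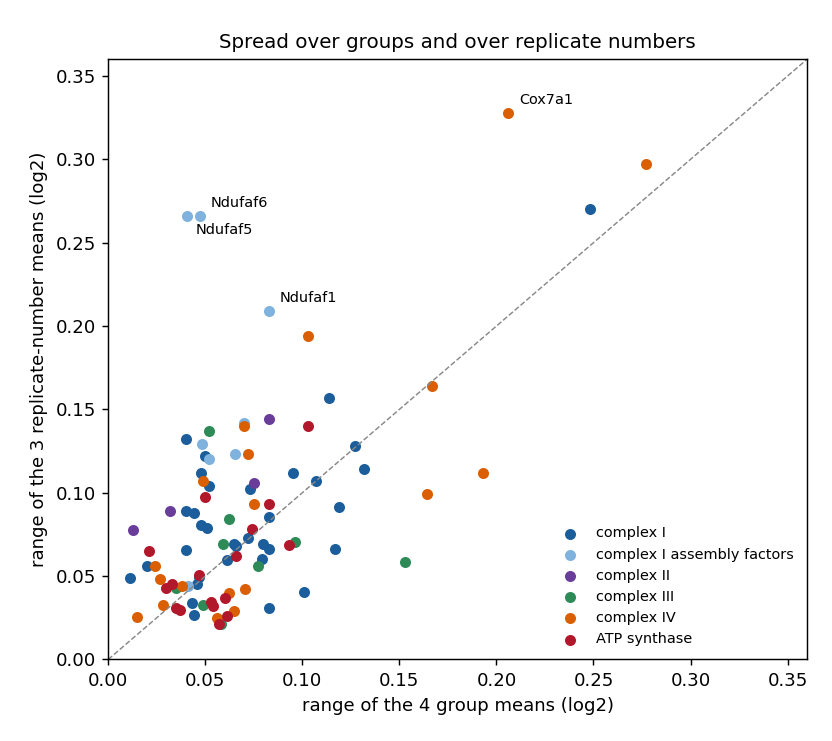
Range of the 3 replicate-number means against the range of the 4 group means (both log2) for each of the 91 members, by complex, with the line of equality and with the names of the 4 members that passed the F test. Those 4 lie above the line.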

How the data were processed

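The authors deposited log2 probe set values. The submitters' processing notes name RMA and affy, and give no version that was found here. The values of 12 arrays were used without rescaling. Of 45101 probe sets, 34958 name 1 gene in the annotation used, 932 name several and 9211 none. Those that name several genes or none were left out. Among them, 10 name a symbol of the member type together with another gene. Per gene, the probe set with the highest mean was kept, which gave 18194 genes. The 91 members have 180 probe sets. Members, classes and gene lists were chosen with earlier results of these data known.

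For every gene, limma estimated 1 mean for each group (limma 3.58.1 in R 4.3.3, 4.90 prior degrees of freedom). Tests were two-sided, with Benjamini-Hochberg adjustment and a threshold of 0.05, and the fits were tested on simulated data. The 8 comparisons were fitted again with the replicate number of the titles as a block (4.48 prior degrees of freedom). Residuals of the 18 same-number pairs of arrays correlated at 0.263 to 0.529 and those of the 36 other pairs at -0.349 to -0.0149, and 12 of 12 arrays were closest to an array with their own number, so the numbers were taken to pair the arrays. The labels do not say what the numbers stand for. The number of arrays limits the precision.

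The members named were those of fixed roles in each complex and, per class, the 2 with the largest average change for iron and the 2 for macrophages; others are said to have been named after their values were seen. The alternatives were the block, array weights, fits to the compared groups only, a filter on low means, centring, quantile normalization, other choices of probe set, trended robust moderation, and leaving out each array. Promoter windows and coordinates are those of RefSeq. Tables and plots used Python with matplotlib.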

Additional observations from a re-analysis of the deposited data

Results flagged for a closer look

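Ndufs7, the complex I subunit with the last iron-sulfur cluster before ubiquinone, had macrophage differences of opposite sign in every same-number pair without and with the iron salt. Without the salt the difference was -0.072 on average, from -0.14 to -0.016, and with it 0.087, from 0.015 to 0.17. The gap between the 2 effects was 0.159 (SE 0.11). The test of that gap itself, the interaction in limma, gave an adjusted p of 1.00, so the opposite signs did not pass it. The same look was taken at 40 named members and at the medians of the members and their classes, each for both treatments.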

How the results depend on the processing

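No member passed the threshold in any fit, with array weights, a filter on low means, centring, quantile normalization, other probe sets, trended robust moderation, only the groups compared, the replicate block, or any array left out. The replicate block, which pairs arrays by number, gave 0 members in each comparison. In this balanced design it cannot move a difference between group means, so the medians with it, such as -0.0311 for FAC against alone, say nothing of stability. Medians moved by more than the spread between pairs under centring of the arrays, to -0.0545 for RAW_FAC against alone and -0.0328 for the average macrophage effect; centring takes each array's median from the values, and no other cause was tested. With an array left out, without and with the block, the median ranged from -0.0347 to -0.019 and -0.0406 to -0.0216 for FAC against alone, from -0.0434 to -0.0112 and -0.0384 to -0.0104 for RAW against alone, from -0.0263 to 0.0169 and -0.026 to 0.00679 for RAW_FAC against RAW, and from -0.021 to 0.00403 and -0.0159 to 0.00699 for RAW_FAC against FAC. It ranged from -0.0407 to -0.0214 and -0.044 to -0.0196 for RAW_FAC against alone (-0.0423 with the block and without alone replicate 2), from 0.00652 to 0.0341 and 0.00424 to 0.0342 for the interaction, from -0.0259 to -0.0073 and -0.0259 to -0.0104 for the average iron effect, and from -0.0215 to -0.00686 and -0.0191 to -0.00453 for the average macrophage effect. The sign of RAW_FAC against RAW rested on RAW replicate 2. Without the block, that of RAW_FAC against FAC rested on FAC replicate 2 and RAW_FAC replicate 3. With the block its median was also above 0 without FAC replicate 3, at 0.00699, and 9 of 12 medians were below 0. The count of members with a difference between replicate numbers, 4, was 10 with low means left out and 7 with all probe sets averaged. Of the 40 named members, 7 changed the sign of their average iron difference and 16 that of their average macrophage difference in at least 1 of 5 settings of scaling, filter or probe set. Of 51 members with more than 1 probe set, the probe sets gave the same sign for the average iron effect in 31 and for the average macrophage effect in 24.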

Other observations

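Sco2, a copper chaperone needed to build complex IV and singled out after its values were seen, had the smallest unadjusted p for the average iron effect among the 37 other assembly factors. The difference was 0.20 (SE 0.047), above 0 in 3 of 3 pairs, with a limma adjusted p of 0.431 without the block and 0.072 with it. For RAW_FAC against RAW it was 0.26 (SE 0.066) and for FAC against alone 0.15 (SE 0.066). The proteasome, a complex outside the mitochondrion set beside the members for comparison, had 36 of 40 genes above 0 for the average iron effect, with a median of 0.044 and 0 genes called by limma without or with the block. At an unadjusted limma p under 0.05 it had 3 of 40 genes without and 6 of 40 with the block, against 6.51% and 12.3% of all genes. Complex I had 28 of 34 members below 0 in that contrast, while 51.1% of all genes were below 0. For the average macrophage effect it had 27 of 34 below 0, against 46.2% of all genes.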
